A study of Mus musculus with 24 samples.

Results

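The comparison of lard with fish oil in conventional mice took in 12 of the 24 arrays of the study, 6 from lard-fed and 6 from fish oil-fed mice, chosen by the labels. All were wild-type male C57Bl/6 mice whose diets began at 11 weeks of age and lasted 11 weeks, and the epididymal white fat was taken after a 4 h fast. Both diets were isocaloric, with 45% of energy as fat. They differed in the fat itself, either lard, whose fatty acids are largely saturated or monounsaturated, or menhaden oil, a fish oil known for its long-chain omega-3 fatty acids. The conventional mice carried microbes; the other 12 arrays, from 6 lard-fed and 6 fish oil-fed germ-free mice, entered the estimate of the spread and the test of whether the diet difference depended on bacterial status. Each mouse gave 1 array. The labels do not give cage or litter, so the p-values measure the spread between these mice.

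Epididymal white fat is a visceral depot in which adipocytes store triglyceride, make fatty acids from glucose, burn part of the branched-chain amino acids of the diet, and release hormones such as leptin and adiponectin. Macrophages take up lipid from dying adipocytes, digest it in lysosomes and present antigen to T cells. Omega-3 fatty acids are known ligands of the nuclear receptors of the PPAR family and of the receptor FFAR4, and they lower the processing of the lipogenic factor SREBP-1 in liver. Values below are deposited log2 signals, and a change is the mean of the lard-fed mice minus that of the fish oil-fed mice, so that 1 unit is a 2-fold difference. Where 3 values are given for a group, they are the lowest, the median and the highest of its 6 mice. A gene is said to rise or fall where its limma p-value, adjusted by Benjamini-Hochberg over all 19938 genes tested, was under 0.05, and every adjusted p below is of this kind.

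Over all genes, correlations between arrays were 0.98 to 0.997 among lard-fed mice and 0.987 to 0.996 among fish oil-fed mice. These values were not set against those between the diets. The marker genes of fat were strongly expressed in every mouse: Adipoq, adiponectin, had 12.60, 13.35 and 13.42 in lard-fed mice and 13.44, 13.60 and 13.75 in fish oil-fed mice. Transcripts of the epididymis, which lies against this depot, averaged 5.60, 5.72 and 5.88 per mouse in lard-fed mice and 5.75, 5.84 and 5.93 in fish oil-fed mice over 29 genes. Those of liver averaged 6.99, 7.40 and 8.41 in lard-fed mice and 6.92, 7.06 and 8.47 in fish oil-fed mice, with 2 of 19 genes higher (0 without lard-fed mice 5 and 6) and 2 lower; the intestinal list had 0 of 13 past the threshold and the skeletal muscle list 0 of 10. Among lard-fed mice, 5 and 6 stood apart. Their mean over 13 general macrophage markers was 11.13 and 11.16, against 10.47 to 10.74 in lard-fed mice 1 to 4 and 9.62 to 10.20 in fish oil-fed mice. Over 8 mature adipocyte markers the same mice averaged 12.90 and 12.86, against 13.25 to 13.31 in mice 1 to 4 and 13.34 to 13.43 in fish oil-fed mice. Where leaving out both mice moved a list count, or the change of a gene that passed, by over 1.5 times, the value without them is therefore given beside it. The same is done for many of the larger lists, though not for all. Changes of genes that did not pass are given with all mice, and some moved by more than that, such as Ccl3 (0.90, or 0.56 without mice 5 and 6). Fish oil-fed mice varied too, and in some lists their means ran in the order of mouse number. From mouse 1 to mouse 6 the mean of cell division genes went from 7.77 to 7.32, and that of branched-chain amino acid breakdown from 10.48 to 11.02. Of the fish oil-fed mice, mouse 1 had the highest macrophage mean, 10.20. The cause was not tested. Since RNA came from the whole depot, fewer cells of a type and less RNA per cell cannot be told apart.

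Of 19938 genes, 6178 (31%) differed by diet, 3076 (15.4%) of them higher and 3102 (15.6%) lower with lard. At least 1.5-fold differences made up 1627 genes (8.16%), 1077 higher and 550 lower, and 477 genes differed at least 2-fold, 347 higher and 130 lower. Rises and falls were alike in number, while more rises than falls were at least 2-fold, and the median change of all genes was -0.04. The balance rests on the scaling: with each array centred on its median, 2641 genes were higher and 4271 lower. In 1598 genes (8.01%) every lard-fed mouse lay above every fish oil-fed mouse, and in 1320 (6.62%) every lard-fed mouse lay below. Without lard-fed mice 5 and 6, 4442 genes passed, of which 4190 had passed in the same direction with them. Of all genes tested, 12.2% were then higher and 10.1% lower.

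The genes of MHC class II, the molecules with which macrophages, dendritic cells and B cells show peptides to helper T cells, were among those with the smallest adjusted p. Of 12 measured genes of the pathway, 10 rose and 0 fell, with a median change of 0.74, and 10 rose without mice 5 and 6. H2-DMa, which helps to load peptide, had 10.69, 10.94 and 11.12 with lard and 9.24, 9.46 and 9.75 with fish oil, a change of 1.47 ± 0.09 (SE, n = 6 and 6, adjusted p = 1.85e-10). Cd74, the invariant chain that guides class II molecules to the endosome, had 12.81, 12.90 and 13.00 with lard and 11.59, 11.78 and 11.96 with fish oil, a change of 1.13 ± 0.07 (adjusted p = 1.93e-10). Ciita, the coactivator that switches the class II genes on, had 8.35, 8.44 and 8.61 with lard and 7.36, 7.47 and 7.57 with fish oil, a change of 0.98 ± 0.07 (adjusted p = 1.23e-09). For each of these genes the 6 lard-fed mice were all above the 6 fish oil-fed mice, and mice 5 and 6 lay close to the rest: the list averaged 9.75 and 9.78 in them, against 9.62 to 9.72 in mice 1 to 4 and 8.90 to 9.11 in fish oil-fed mice. The classical chains H2-Aa, H2-Eb1 and H2-Ab1 rose by 1.17, 1.11 and 1.06, and H2-Eb2, a second E beta chain, by 0.50. H2-Oa and H2-Ob, the 2 chains of a protein that restrains H2-DM, rose by 0.34 and 0.51. Of the factors that hold CIITA at the promoter, Rfx5 rose by 0.23, while Rfxank and Rfxap differed by -0.08 (adjusted p = 0.324) and -0.00 (adjusted p = 0.993). Among 12 genes of MHC class I presentation 5 rose and 0 fell. These were H2-Q4 (1.00), the immunoproteasome subunits Psmb10 (0.44) and Psmb9 (0.31), Tapbp (0.42) and the peptide transporter Tap1 (0.34), while B2m, the light chain of all class I molecules, differed by -0.03 (adjusted p = 0.673). Costimulatory genes rose in 6 of 10 and fell in 0 (4 and 0 without mice 5 and 6), among them Cd80 (0.73), Icosl (0.49) and Cd86 (0.44).

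Class II promoters share a set of short elements, of which the Y box is bound by the general factor NF-Y. Its letters CTGATTGG were searched on both strands in the 300 bases around each gene start (250 before and 50 after) of RefSeq promoters. They were present in 4 of the 8 class II pathway genes that had a promoter entry, and in 4.7% of all 27025 genes with one. The 4 genes were H2-Aa, H2-Eb1, H2-Eb2 and H2-Oa. The first pair is shown because these chains carry the rise described above; the letters read 5′ to 3′ along the gene's strand, the Y box is in capitals, and it starts at position -51 and -62 relative to the gene start. The match is of letters and says nothing on binding.
H2-Aa, GRCm38.p6 chr17:34287774-34288073, minus strand: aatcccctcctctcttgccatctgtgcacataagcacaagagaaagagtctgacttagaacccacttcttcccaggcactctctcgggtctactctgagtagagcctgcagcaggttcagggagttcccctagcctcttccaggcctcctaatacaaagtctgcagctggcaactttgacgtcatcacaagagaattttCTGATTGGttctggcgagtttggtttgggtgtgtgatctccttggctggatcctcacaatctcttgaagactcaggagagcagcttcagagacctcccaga
H2-Eb1, GRCm38.p6 chr17:34305617-34305916, plus strand: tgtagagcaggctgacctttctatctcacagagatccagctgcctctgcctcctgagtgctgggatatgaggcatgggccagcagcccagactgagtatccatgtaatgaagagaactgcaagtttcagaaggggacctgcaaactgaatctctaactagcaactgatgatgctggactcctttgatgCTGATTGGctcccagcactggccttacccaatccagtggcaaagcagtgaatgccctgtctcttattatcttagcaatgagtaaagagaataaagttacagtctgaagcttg

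**Figure D1:**
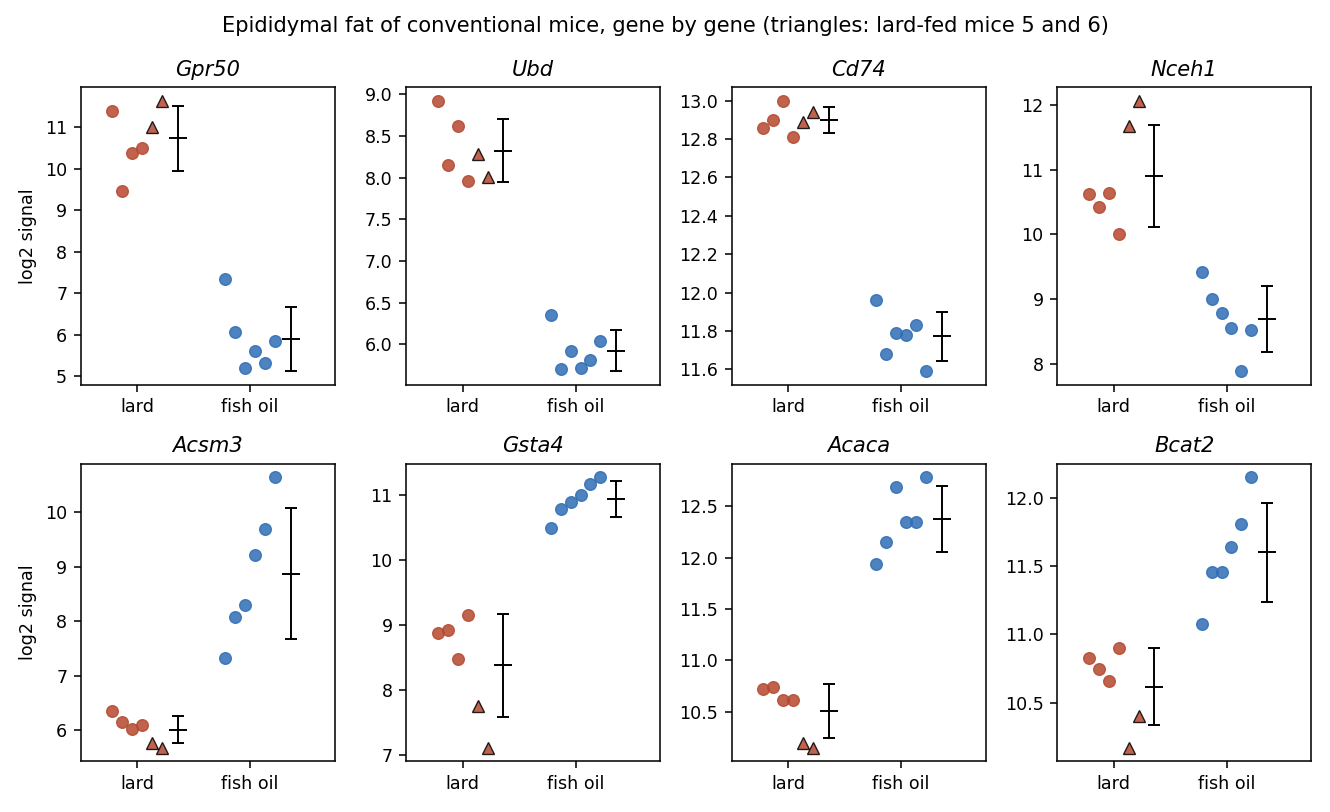
Log2 signal (y axis) of 8 genes in each mouse, lard-fed conventional mice to the left of fish oil-fed conventional mice; points are mice, bars the mean ± SD of 6 mice, and triangles lard-fed mice 5 and 6. In all 8 panels the lard-fed mice lie on one side of the fish oil-fed mice without overlap, above for Gpr50 (4.83), Ubd, Cd74 and Nceh1 and below for Acsm3 (-2.87), Gsta4, Acaca and Bcat2.

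Among single genes the largest rise was that of Gpr50, an orphan G protein-coupled relative of melatonin receptors, with 9.46, 10.76 and 11.64 in lard-fed mice and 5.21, 5.73 and 7.34 in fish oil-fed mice. The gap between the groups was wide, and the difference was 28.5-fold (4.83 ± 0.38, adjusted p = 4.1e-09). Lipf, a lipase best known from the stomach, had 8.95, 10.03 and 10.54 with lard and 5.49, 6.46 and 7.78 with fish oil, a change of 3.27 ± 0.32 (adjusted p = 7.69e-08). Tm4sf19, a membrane protein of the tetraspan kind, rose by 2.63. Several of the next largest rises are of genes known from lipid-laden macrophages: Nceh1, which splits stored cholesterol esters (2.21), Atp6v0d2, a subunit of the proton pump (2.03), the lipid receptor Trem2 (2.01) and Itgax, which encodes CD11c (1.93). Others limit inflammation or proteolysis: Tnip3, which restrains NF-kappaB (2.56), Il1rn, the antagonist of the interleukin-1 receptor (2.16), and Timp1, an inhibitor of metalloproteinases (2.31). Ubd, a ubiquitin-like protein induced by cytokines, had the smallest adjusted p of all genes (5.63e-11), with 7.96, 8.22 and 8.92 in lard-fed mice and 5.70, 5.87 and 6.35 in fish oil-fed mice and a change of 2.40 ± 0.14. A further set has no place in the immune lists. Pvalb, the calcium-binding protein parvalbumin, had 8.03, 8.55 and 9.21 with lard and 5.95, 6.35 and 7.27 with fish oil, a change of 2.17. Fabp7, a fatty acid-binding protein best known from brain, had 9.45, 10.05 and 10.52 with lard and 7.60, 7.84 and 8.22 with fish oil, a change of 2.16. Mstn, myostatin, a secreted inhibitor of muscle growth, had 6.55, 7.05 and 7.22 with lard and 5.05, 5.33 and 5.66 with fish oil, a change of 1.61 ± 0.12 (adjusted p = 1.84e-09). None of the 3 overlapped between the diets, and all kept their call without mice 5 and 6, with changes of 2.18, 2.01 and 1.70. Cdkl4, a kinase (2.39), Slc5a7, the choline transporter (2.32), Cck, the peptide hormone cholecystokinin (1.79), and Oxtr, the oxytocin receptor (1.78), rose too.

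The largest fall was that of Acsm3, which activates medium-chain fatty acids to acyl-CoA. It had 5.68, 6.06 and 6.35 in lard-fed mice and 7.33, 8.76 and 10.64 in fish oil-fed mice, a change of -2.87 ± 0.34 (adjusted p = 1.17e-06). Ces1f, a carboxylesterase able to hydrolyse triglyceride, had 7.57, 8.79 and 9.71 with lard and 10.92, 11.66 and 12.39 with fish oil, a change of -2.82 ± 0.27 (adjusted p = 6.63e-08). Gsta4, a glutathione transferase that clears 4-hydroxynonenal, an aldehyde formed when polyunsaturated fatty acids oxidise, had 7.11, 8.67 and 9.15 with lard and 10.49, 10.94 and 11.27 with fish oil, a change of -2.56 ± 0.24 (adjusted p = 4.04e-08). All 6 lard-fed mice lay below all 6 fish oil-fed mice for the 3 genes. Fam13a, a gene of adipocyte insulin signalling, fell by 2.58, and so did Cyp2e1, a cytochrome P450 that oxidises fatty acids and solvents (-1.83), Gpd2, the mitochondrial enzyme of the glycerophosphate shuttle (-1.60), Nat8l, which makes N-acetylaspartate (-1.53), and Aspa, which splits it (-1.36). Agt, angiotensinogen, fell by 1.38, Amy1, an amylase, by 1.47 and Bche, butyrylcholinesterase, by 1.35; without mice 5 and 6 the change of Cyp2e1 was -0.98 and that of Bche -0.86. The other esterases and acyl-CoA synthetases were mostly level: of 21 family members 5 fell and 0 rose, the others that fell being Ces1d (-1.59), Acsm5 (-0.62) and Ces1e (-0.34).

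Genes of branched-chain amino acid breakdown fell together. This pathway removes the amino group of leucine, isoleucine and valine, passes the products through the branched-chain ketoacid dehydrogenase, and ends in acetyl-CoA and succinyl-CoA. Of 23 genes, 20 fell and 1 rose, with a median change of -0.77 beside -0.04 over all genes, and 19 fell without mice 5 and 6. Bcat2, the transaminase of the first step, had 10.17, 10.70 and 10.90 with lard and 11.08, 11.55 and 12.15 with fish oil, a change of -0.98 ± 0.14 (adjusted p = 7.95e-06). Bckdha, a catalytic subunit of the ketoacid dehydrogenase, changed by -0.94 ± 0.13 (adjusted p = 6.44e-06). Mccc1, a chain of the carboxylase of leucine breakdown, had 9.12, 9.63 and 10.06 with lard and 10.36, 10.71 and 11.04 with fish oil, a change of -1.09 ± 0.12 (adjusted p = 4.06e-07). The groups did not overlap for any of the 3. The second catalytic subunit Bckdhb and the core subunit Dbt had changes of -0.64 and -0.86, and the kinase that switches the complex off, Bckdk, -0.49. In the arms that follow, the leucine enzymes Mccc2 and Ivd had changes of -0.97 and -0.87, and the valine enzymes Hibch and Aldh6a1 of -1.03 and -0.95. The propionyl-CoA carboxylase chains Pccb and Pcca and the methylmalonyl-CoA mutase Mmut, which turn the remaining propionyl-CoA into succinyl-CoA, had -1.04, -0.70 and -0.77. Of all 23, the 1 that rose was Bcat1, the cytosolic transaminase found in many dividing and immune cells rather than in fat cells, with 7.99, 8.28 and 8.66 with lard, 7.38, 7.76 and 8.11 with fish oil and a change of 0.54 (adjusted p = 0.00158). These ranges overlapped. Bcat1 and Bcat2 thus moved in opposite directions, and 0 of the 23 genes passed the test of whether the diet change differed between conventional and germ-free mice, beside 7.2% of all genes. The list's median change was -0.77 in conventional and -0.45 in germ-free mice, and the smallest adjusted p of the differences among the named members were 0.0541 for Mmut and 0.0555 for Bckdk.

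**Figure D2:**
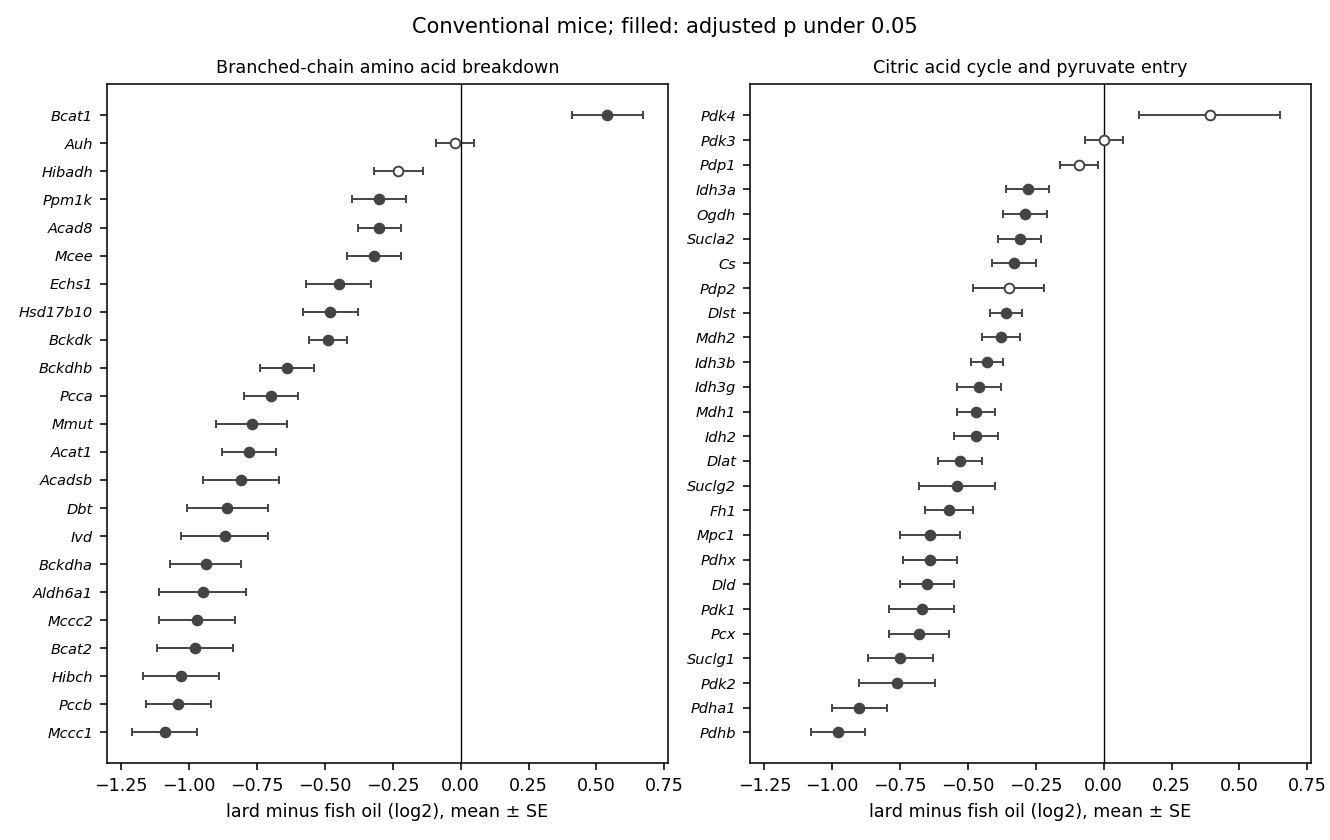
Change of each gene with lard against fish oil in conventional mice (x axis, log2, mean ± SE from limma over 6 and 6 mice) for branched-chain amino acid breakdown and for pyruvate entry and the citric acid cycle; filled points passed the threshold and open points did not. Apart from Bcat1, at 0.54, every gene that passed lies below 0.

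The steps that lead from pyruvate into the citric acid cycle fell as well. Of 26 genes 22 fell and 0 rose, with a median of -0.47 and with 22 lower without mice 5 and 6. Pyruvate dehydrogenase subunit Pdhb had 8.72, 8.99 and 9.35 with lard and 9.75, 10.01 and 10.24 with fish oil, a change of -0.98 ± 0.10 (adjusted p = 1.62e-07). The groups were apart, as they were for Pdha1 (-0.90), for the pyruvate carrier Mpc1 (-0.64, or -0.41 without mice 5 and 6) and for pyruvate carboxylase Pcx (-0.68). Of the kinases that inhibit the dehydrogenase, Pdk2 and Pdk1 fell by 0.76 and 0.67. Pdk4, the kinase that fasting and fatty acids induce, differed by 0.39 (adjusted p = 0.272). All 13 enzymes of the cycle itself fell, from Suclg1 (-0.75) to Idh3a (-0.28). In the respiratory chain 30 of 35 complex I genes and 37 of 40 genes of complexes II to V fell and 0 rose, with medians of -0.65 and -0.55. Without mice 5 and 6 the counts were 29 and 36. By complex, 3 of 4 genes of complex II, 9 of 9 of complex III, 10 of 10 of complex IV and 15 of 17 of the ATP synthase fell. Ndufb8, which the assembly of complex I needs, had 9.63, 10.35 and 10.61 with lard and 11.18, 11.38 and 11.76 with fish oil, a change of -1.24 ± 0.15 (adjusted p = 1.31e-06). In 28 of the 35 complex I genes every lard-fed mouse lay below every fish oil-fed mouse, beside 6.62% of all genes. The proteins of the mitochondrial ribosome, which translates the few proteins that mitochondrial DNA encodes, fell in 58 of 77 and rose in 1 (Mrpl4, 0.32), with a median of -0.35; 37 fell without mice 5 and 6. Mrps18c had the largest fall (-0.91). Ppargc1a, the coactivator PGC-1alpha that raises mitochondrial genes, had 6.81, 7.40 and 7.77 with lard and 8.21, 8.46 and 9.14 with fish oil, a change of -1.23 ± 0.16 (adjusted p = 3.14e-06), and Ppargc1b fell by 0.46. The letters TCAAGGTCA, the element of the oestrogen-related receptors that PGC-1alpha coactivates, were searched on both strands of the 300-base promoters described above and were in 0 of the 31 complex I genes with an entry and in 0.466% of all 27025 genes. No match says only that these letters are not in these windows.

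Fatty acid oxidation was less uniform. Of 34 genes 22 fell and 2 rose, with a median of -0.33. Without mice 5 and 6, 16 fell and 1 rose. Acadvl, which begins the oxidation of long chains in mitochondria, fell by 0.82, and the peroxisomal enzyme Ehhadh, a known target of PPARalpha, by 0.97. Cpt1a, the liver form of the transferase that admits fatty acids to mitochondria, had 11.00, 11.17 and 11.45 in lard-fed mice and 10.32, 10.58 and 10.84 in fish oil-fed mice, a change of 0.63 ± 0.08 (adjusted p = 5.3e-06). Its lard-fed mice were all above the fish oil-fed ones, the reverse of Acadvl. Hadha, of the trifunctional protein that completes the spiral for long chains, differed by -0.13 (adjusted p = 0.169). The list of PPAR target genes did not move one way: 3 of 17 rose and 4 fell, beside 15.4% higher and 15.6% lower of all genes. The droplet protein genes Plin2 and Hilpda rose by 0.63 and 0.62, Cidea fell by 1.81, and the fatty acid transporter Cd36 differed by -0.06 (adjusted p = 0.388). Of 13 genes of brown-like adipocytes 4 fell and 1 rose, or 4 and 0 without mice 5 and 6. Cox8b fell by 1.30 (a change of -0.82 without mice 5 and 6). Ucp1, the uncoupling protein itself, differed by -0.11 (adjusted p = 0.46), at low signals of 5.73, 6.02 and 6.17 with lard and 5.78, 6.06 and 6.45 with fish oil.

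**Figure D3:**
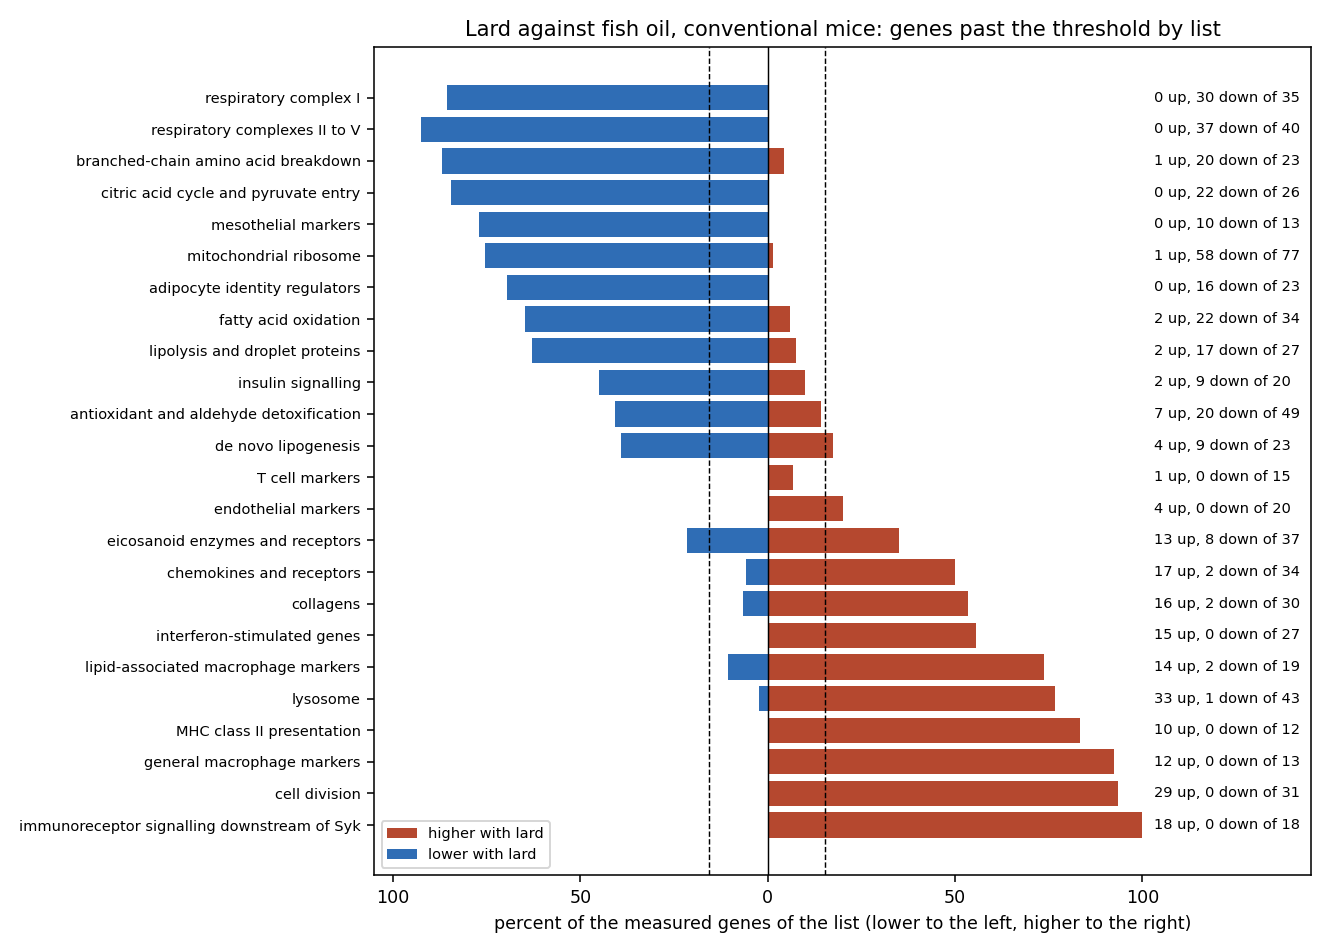
Share of the measured genes of 24 gene lists that were higher (right bars) or lower (left bars) with lard than with fish oil in conventional mice (x axis, percent of the list's genes), with the counts beside the bars; dashed lines mark the 15.4% higher and 15.6% lower of all genes tested. Lists of mitochondria and amino acid breakdown extend to the left and lists of macrophages, Syk signalling and cell division to the right.

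The pathway from citrate to palmitate fell while most desaturases did not. Of 11 genes for the making of palmitate 8 fell and 0 rose, and all 8 of those also fell without mice 5 and 6. Acaca, acetyl-CoA carboxylase, the committed step, had 10.15, 10.61 and 10.74 with lard and 11.94, 12.35 and 12.78 with fish oil, a change of -1.87 ± 0.16 (adjusted p = 1.77e-08). Thrsp, a regulator of lipogenesis, had 9.24, 11.08 and 11.68 with lard and 12.45, 12.81 and 12.95 with fish oil, a change of -2.02 ± 0.34 (adjusted p = 5.75e-05). Neither overlapped between the diets. Acly, which makes the cytosolic acetyl-CoA, fell by 0.82, Fasn, fatty acid synthase, by 0.75, and Tkt, of the pentose phosphate path that supplies NADPH, by 0.97. The elongase Elovl6, which extends palmitate, fell by 0.96. It was the 1 of 12 elongases and desaturases that fell, and 4 rose, among them Scd2 (0.95) and Elovl1 (0.66). Scd1, the main desaturase of fat, differed by 0.01 (adjusted p = 0.933) and Fads2, which makes long omega-3 and omega-6 acids, by 0.02 (adjusted p = 0.892). Scd1 had 13.73, 13.94 and 13.98 with lard and 13.75, 13.87 and 14.07 with fish oil, near the highest value of any array, 14.59. The carbohydrate-response factor gene Mlxipl and the sterol-response factor gene Srebf1 fell by 0.50 and 0.41, calls that ended without mice 5 and 6 (adjusted p = 0.0998 and 0.0777). Cholesterol synthesis had 8 of 17 genes higher and 2 lower, or 5 and 1 without mice 5 and 6; 5 were also higher without lard-fed mouse 6 alone or any of fish oil-fed mice 4 to 6. Dhcr7, the last enzyme, rose by 0.92.

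For the storage of triglyceride, 7 of 13 genes of esterification fell and 1 rose. Of 11 genes of fatty acid uptake 3 fell and 1 rose, or 0 and 1 without mice 5 and 6. Without lard-fed mouse 5 alone, 1 uptake gene fell. Mogat1, a monoacylglycerol acyltransferase, had 6.53, 7.87 and 8.52 with lard and 9.11, 9.67 and 9.90 with fish oil, a change of -1.93 ± 0.25 (adjusted p = 3.63e-06). Pck1, which supplies the glycerol backbone from pyruvate in fat, had 9.71, 10.38 and 11.31 with lard and 11.92, 12.19 and 12.74 with fish oil, a change of -1.88 ± 0.29 (adjusted p = 1.98e-05). The groups were apart for both, and for the acyltransferases Gpat3 (-1.21) and Dgat1 (-0.39), whereas Dgat2 and lipoprotein lipase, Lpl, differed by -0.07 and -0.10 (adjusted p = 0.521 and 0.105). Lipolysis genes fell in 17 of 27 and rose in 2, or 13 and 2 without mice 5 and 6. Both the lipases and their brakes were among them: Pnpla2, which encodes the lipase ATGL, fell by 0.37, its activator Abhd5 by 0.52, its inhibitor G0s2 by 0.93 (a change of -0.59 without mice 5 and 6), and Pde3b, the phosphodiesterase with which insulin stops lipolysis, by 1.08. Of 20 insulin signalling genes 9 fell and 2 rose, or 7 and 2 without mice 5 and 6, and 4 rose without lard-fed mouse 4. The glucose transporter Slc2a4 had 8.79, 9.89 and 10.38 with lard and 10.51, 10.81 and 11.06 with fish oil, a change of -1.09 (adjusted p = 0.000535; -0.71 without mice 5 and 6), and Irs1, the main docking protein of the insulin receptor in fat, fell by 1.07. Every lard-fed mouse was below every fish oil-fed mouse for both, as it was for the receptor Insr (-0.39) and for Pik3r1 (-0.55), while Irs2 and Akt1 differed by -0.18 and 0.19 (adjusted p = 0.337 and 0.0639).

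Transcription factors that hold the adipocyte state fell in 16 of 23 and rose in 0, though in 8 and 1 without mice 5 and 6. Cebpa, which with PPARgamma drives adipocyte genes, had 10.53, 10.72 and 10.84 with lard and 11.31, 11.48 and 11.62 with fish oil, a change of -0.81 ± 0.10 (adjusted p = 2.73e-06). Pparg had a smaller change, of -0.29 (adjusted p = 0.00236), with 11.67, 12.01 and 12.15 with lard and 12.13, 12.25 and 12.36 with fish oil, ranges that overlapped. Klf15 fell by 0.97, Ebf2 by 0.93 and Ebf1 by 0.59. Among hormones of the depot, Lep, leptin, rose by 0.48 and Nrg4, a growth factor that adipocytes release, fell by 1.10. Adipoq fell by 0.46 (adjusted p = 0.00522), and without mice 5 and 6 its change was -0.22 (adjusted p = 0.0706). Retn, resistin, fell by 0.69 (a change of -0.30 without mice 5 and 6). Genes known to be high in expanding mouse fat were split: Mest rose by 1.25, Sfrp5, an inhibitor of Wnt signalling, by 1.16 and Tph2, a tryptophan hydroxylase, by 0.74, while the imprinted gene Nnat fell by 0.93 (a change of -0.60 without mice 5 and 6). Mest had 12.51, 12.69 and 12.80 in lard-fed mice and 10.66, 11.49 and 11.81 in fish oil-fed mice, without overlap. Ffar4, the receptor for omega-3 fatty acids, had 7.77, 8.07 and 8.43 with lard and 8.87, 9.02 and 9.16 with fish oil, a change of -0.95 ± 0.11 (adjusted p = 8.16e-07), and Hcar1, the lactate receptor of adipocytes, fell by 0.89. In the same group of lipid and metabolite receptors, the immune receptors Cnr2, Gpr35 and Gpr132 rose by 0.87, 0.49 and 0.46.

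Detoxifying enzymes fell in part. Of 49 antioxidant and aldehyde-clearing genes 20 fell and 7 rose, or 17 and 6 without mice 5 and 6. Of the calls made with all mice, 17 falls but only 2 rises were kept without mice 5 and 6. The glutathione transferases and their microsomal kin held the largest falls: beside Gsta4 these were Gsta3 (-1.84), Mgst3 (-1.10) and Mgst2 (-0.87). Gpx4, which reduces lipid peroxides in membranes, had 11.00, 11.74 and 11.81 with lard and 11.90, 12.08 and 12.32 with fish oil, a change of -0.53 (adjusted p = 0.00195; -0.31 without mice 5 and 6), and the groups did not meet. The NRF2 targets Nqo1, Gclm, Srxn1 and Txnrd1 did not pass, with changes of -0.15 to 0.35 (adjusted p = 0.396 for Nqo1, 0.19 for Gclm, 0.0756 for Srxn1 and 0.807 for Txnrd1). By contrast all 5 measured genes of the phagocyte oxidase, which makes superoxide, rose, and all 5 rose without mice 5 and 6. Cybb, its catalytic subunit, had 11.37, 11.52 and 12.30 with lard and 10.27, 10.65 and 11.20 with fish oil, a change of 1.02 ± 0.17 (adjusted p = 5.19e-05), and Cyba, Ncf1, Ncf4 and Rac2 rose by 0.97, 0.69, 1.12 and 1.13. Every lard-fed mouse lay above every fish oil-fed mouse in all 5.

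The oxidase genes are mainly those of macrophages and neutrophils, and most macrophage genes measured rose. Of 13 general markers 12 rose and 0 fell, with a median of 0.96 and the same count without mice 5 and 6, where 11 of the 12 kept their call. Adgre1, which encodes a surface antigen of mouse macrophages, had 11.02, 11.36 and 12.43 with lard and 9.89, 10.17 and 10.69 with fish oil, a change of 1.37 ± 0.21 (adjusted p = 2.32e-05). Resident macrophage markers rose in 5 of 13 and fell in 2, or 5 and 0 without mice 5 and 6, and 3 rose without fish oil-fed mouse 3 or 6. Only 2 of the 5 that rose with all mice kept their call without mice 5 and 6. Folr2 and Clec10a rose by 0.87 and 0.82. Lyve1, which marks macrophages along vessels, differed by -0.17 (adjusted p = 0.646), and Cd163, a haemoglobin scavenger, fell by 0.56 (a change of -0.31 without mice 5 and 6). The call of Cd163 ended without any of fish oil-fed mice 1, 4, 5 and 6 or lard-fed mice 3 to 6 (adjusted p up to 0.163), and Timd4, the other marker that fell (-0.33), lost its call without mice 5 and 6 (adjusted p = 0.158) and without lard-fed mouse 5 or 6 or fish oil-fed mouse 4 or 5 (adjusted p up to 0.0674). Lipid-associated macrophage markers rose in 14 of 19 and fell in 2, or 12 and 1 without mice 5 and 6, which had the highest means of this list (12.42 and 12.51, against 11.63 to 11.88 in mice 1 to 4 and 10.83 to 11.65 in fish oil-fed mice). Trem2 had 10.11, 10.83 and 11.95 with lard and 8.19, 8.83 and 9.92 with fish oil, a change of 2.01 ± 0.29 (adjusted p = 9.66e-06), and without mice 5 and 6 the change was 1.56 (adjusted p = 0.000112). Acp5, a phosphatase of such cells, was lower with lard (-0.50), also without mice 5 and 6 (-0.51, adjusted p = 0.000698). Monocyte attraction had both sides higher: Ccl2 had 10.63, 11.32 and 11.83 with lard and 8.57, 9.94 and 10.43 with fish oil, a change of 1.47 ± 0.28 (adjusted p = 0.000202), and its receptor Ccr2 had 9.24, 9.61 and 9.75 with lard and 7.44, 8.11 and 8.38 with fish oil, a change of 1.59 ± 0.15 (adjusted p = 6.13e-08).

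Genes of the signalling behind immune receptors rose together. Fc receptors, TREM2 and many lectins signal through adaptors that recruit the kinase SYK, which acts on linker proteins and on phospholipase C. Of 18 genes of this chain 18 rose and 0 fell, with a median of 0.94, and 16 rose without mice 5 and 6; in 16 the groups did not overlap, beside 8.01% of all genes. Syk had 9.20, 9.33 and 10.10 with lard and 8.41, 8.59 and 8.87 with fish oil, a change of 0.90 ± 0.14 (adjusted p = 2.48e-05). Blnk, a linker protein downstream of SYK, had 9.55, 10.19 and 11.13 with lard and 8.15, 8.28 and 9.08 with fish oil, a change of 1.90 ± 0.22 (adjusted p = 6.53e-07). The other linker Lcp2, the kinase Btk, the phospholipase Plcg2 and the exchange factor Vav1 rose by 1.00, 1.09, 0.95 and 0.95. The brakes rose too, the lipid phosphatase Inpp5d by 0.79, the tyrosine phosphatase Ptpn6 by 0.84 and the docking protein Dok2 by 0.93, and so did the transcription factors Spi1 (1.54), which sets the myeloid programme, Irf5 (1.18) and Irf8 (1.14). Upstream, the 5 Fc receptor genes all rose, among them Fcgr1 (1.40), Fcgr4 (1.26) and the inhibitory Fcgr2b (0.79). Of 18 lectins and scavenger receptors 11 rose and 0 fell. The risers included Clec4a2 (2.01), Clec12a (1.73) and Clec7a, the beta-glucan receptor (1.06, or 0.68 with adjusted p = 0.0737 without mice 5 and 6), whereas Clec4e, the receptor Mincle, differed by -0.36 (adjusted p = 0.231).

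Lysosomal genes rose in 33 of 43 and fell in 1, with a median of 0.48; 26 rose without mice 5 and 6. All 10 cathepsins and related proteases were higher, from Ctsk (1.37), the collagen-degrading cathepsin, to Ctsd (0.32), changes that were 0.88 and 0.20 without mice 5 and 6. Lipa, the acid lipase that frees cholesterol and fatty acids from ingested lipid, had 11.72, 12.03 and 12.92 with lard and 10.55, 10.95 and 11.48 with fish oil, a change of 1.26 ± 0.18 (adjusted p = 9.67e-06). Nceh1, which does the same for droplets in the cytosol, had 10.01, 10.64 and 12.06 with lard and 7.89, 8.67 and 9.42 with fish oil, a change of 2.21 ± 0.27 (adjusted p = 1.54e-06). Both were apart between the diets, as were the sterol exporter Abcg1 (1.04) and the lipid transfer protein Pltp (1.18), while Abca1 and Apoe, of the same export route, differed by 0.08 and -0.06 (adjusted p = 0.463 and 0.503). The proton pump had 8 of 21 subunits higher and 1 lower. Of 15 membrane proteins and regulators 9 rose and 0 fell, or 4 and 0 without mice 5 and 6; Lamp1 and Lamp2, abundant membrane proteins, differed by 0.11 and 0.05 (adjusted p = 0.191 and 0.622). The core of the CLEAR element, TCACGTGA, which the lysosomal regulator TFEB binds, was in the promoters of 4 of 38 lysosomal genes with an entry and of 1.12% of all 27025 genes, on both strands of the same 300-base windows. The 4 were Ctsa, Ctsd and Gla, which rose by 0.58, 0.32 and 1.21 (Gla by 0.74 without mice 5 and 6), and the calcium channel gene Mcoln1 (0.11, adjusted p = 0.187). Ctsa and Gla are shown because each holds 2 copies, in capitals; as above, a match is of letters alone.
Ctsa, GRCm38.p6 chr2:164833523-164833822, plus strand: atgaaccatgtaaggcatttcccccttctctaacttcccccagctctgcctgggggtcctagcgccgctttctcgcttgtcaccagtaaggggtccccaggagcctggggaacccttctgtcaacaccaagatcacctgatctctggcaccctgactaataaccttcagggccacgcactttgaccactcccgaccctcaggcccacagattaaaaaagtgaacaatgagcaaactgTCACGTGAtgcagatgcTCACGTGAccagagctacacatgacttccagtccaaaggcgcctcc
Gla, GRCm38.p6 chrX:134600956-134601255, minus strand: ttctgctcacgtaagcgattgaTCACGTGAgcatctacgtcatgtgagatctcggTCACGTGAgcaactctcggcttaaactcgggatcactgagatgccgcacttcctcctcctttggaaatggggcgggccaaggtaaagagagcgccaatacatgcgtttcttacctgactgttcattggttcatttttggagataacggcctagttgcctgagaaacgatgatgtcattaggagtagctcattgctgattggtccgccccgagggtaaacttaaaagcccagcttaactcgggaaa

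**Figure D4:**
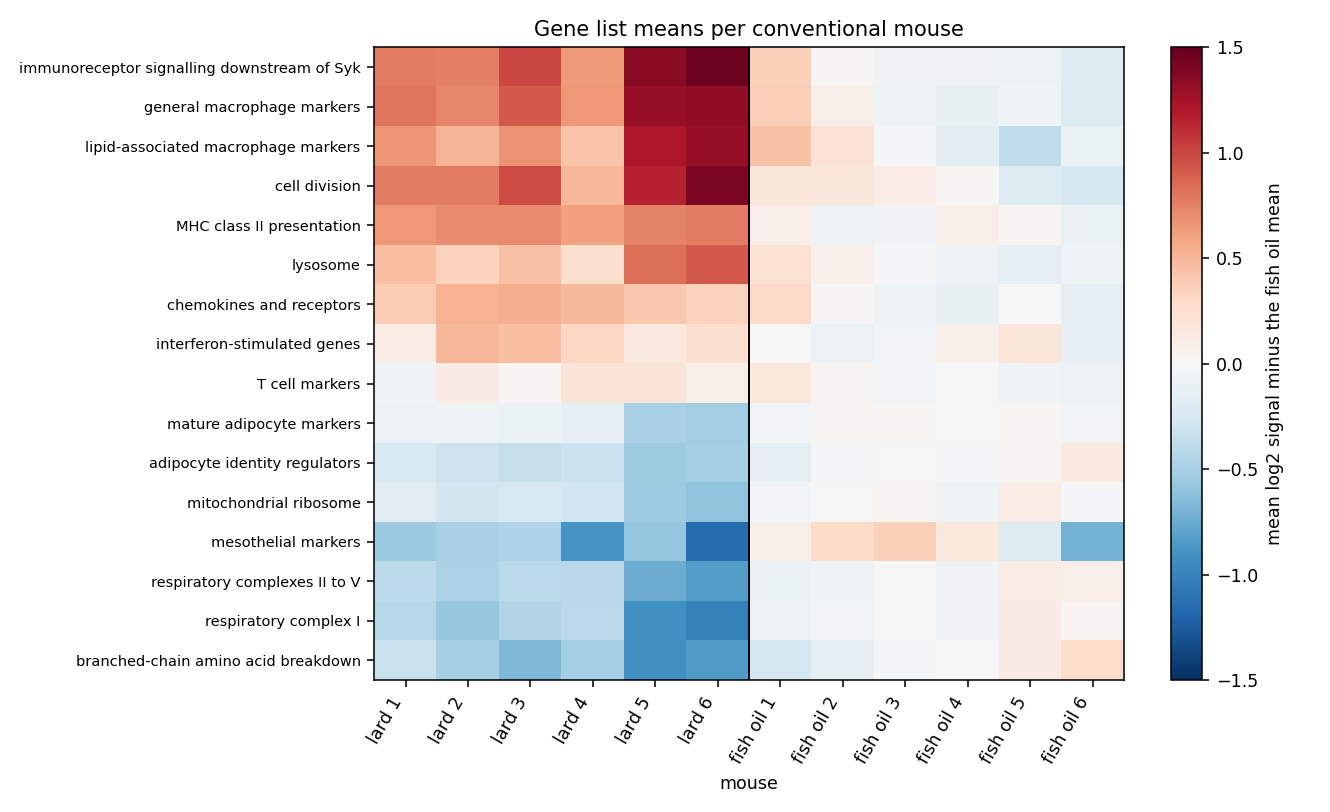
Mean log2 signal of 16 gene lists in each conventional mouse, as the difference from the mean of the 6 fish oil-fed mice (colour scale, log2; the 6 lard-fed mice are the left columns and the 6 fish oil-fed mice the right). Lard-fed mice 5 and 6 have the highest macrophage and lysosome means and the lowest adipocyte means, while their MHC class II means are near those of lard-fed mice 1 to 4.

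In the inflammatory lists rises outnumbered falls. Of 19 interleukin-1 and inflammasome genes 11 rose and 2 fell, or 10 and 0 without mice 5 and 6. The sensors and effectors of the inflammasome carried the rise, with 8 of 11 higher, among them the adaptor Pycard (1.12), Casp1 (0.96) and the sensors Naip2 (1.07), Naip5 (1.02) and Aim2 (0.93), while Nlrp3 differed by 0.22 (adjusted p = 0.154). The cytokine that this machinery matures, Il1b, had 6.13, 6.43 and 6.67 with lard and 6.64, 6.74 and 7.63 with fish oil, a change of -0.52 (adjusted p = 0.0419), and the call ended without mice 5 and 6 (adjusted p = 0.0852) and without any of lard-fed mice 1, 3, 4 and 5 or fish oil-fed mice 1 and 6 (adjusted p up to 0.124). Its antagonist Il1rn had 9.04, 9.71 and 10.95 with lard and 7.02, 7.56 and 8.44 with fish oil, a change of 2.16 ± 0.29 (adjusted p = 4.37e-06). Antagonist and cytokine thus lay on opposite sides. Among chemokines and their receptors 17 of 34 rose and 2 fell, or 15 and 0 without mice 5 and 6: Cxcl10, which draws T cells, rose by 1.39, Ccl9 by 1.28, Ccl6 by 1.03 and Cxcl16 by 0.94. Ccl3, at 0.90 (adjusted p = 0.0522), and Ccl5, at 0.27 (adjusted p = 0.432), did not pass. Feedback inhibitors of NF-kappaB rose in 11 of 12, and Tnf itself rose by 0.65 (adjusted p = 5.4e-05). The Toll-like receptor list rose in 21 of 27 and fell in 0, or 19 and 0 without mice 5 and 6. It was led by Ly86 (1.84) and Cd180 (1.81), which form a receptor that modulates TLR4, whereas Tlr4 differed by 0.20 (adjusted p = 0.134). Interferon-stimulated genes rose in 15 of 27 and fell in 0, with a median of 0.32. Without mice 5 and 6, 14 rose and 0 fell, and 13 of the 15 kept their call. Oasl1 (0.76, or 0.50 without mice 5 and 6), Oas1a (0.68) and Rsad2 (0.59) were among the larger rises.

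Complement was split by component. Of 23 genes 13 rose and 2 fell, or 15 and 2 without mice 5 and 6. The 3 chains of C1q, made mostly by macrophages, rose by 0.65, 1.20 and 0.99 (C1qa, C1qb and C1qc), and of 10 receptors and regulators 7 rose, such as C5ar1 (1.43) and C3ar1 (1.37). C2, the protease component of the classical pathway, had 9.05, 9.42 and 9.58 with lard and 10.04, 10.46 and 10.79 with fish oil, a change of -1.10 ± 0.13 (adjusted p = 8.96e-07). Masp1, a protease of the lectin pathway, fell by 0.70. For both, all lard-fed mice lay below all fish oil-fed mice. Eicosanoid genes were divided as well, 13 of 37 higher and 8 lower, or 13 and 6 without mice 5 and 6. Of the calls made with all mice, 11 rises and 5 falls were then kept. Tbxas1, thromboxane synthase, had 9.29, 9.72 and 10.87 with lard and 8.25, 8.34 and 8.61 with fish oil, a change of 1.60 ± 0.19 (adjusted p = 9.28e-07), and Hpgds, a prostaglandin D synthase of immune cells, rose by 1.63 (adjusted p = 0.000885). Ptges, a prostaglandin E synthase, had 9.41, 10.02 and 10.19 with lard and 10.70, 10.84 and 11.37 with fish oil, a change of -1.06 (adjusted p = 2.22e-05). Thromboxane synthase and prostaglandin E synthase thus differed in opposite directions, and Ptgs2, the inducible cyclooxygenase that feeds both, differed by -0.14 (adjusted p = 0.478). Alox5ap, the partner of 5-lipoxygenase, rose by 1.00, while the lipoxygenase Alox5 differed by -0.06 (adjusted p = 0.75). Ephx2, the soluble epoxide hydrolase that breaks down epoxides of fatty acids, fell by 0.86 and its microsomal relative Ephx1 rose by 0.94.

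Few lymphocyte markers passed, and their list means were low in signal. For T, NK and B cell markers the medians were 6.98, 6.67 and 6.54 with lard. With fish oil they were 6.85, 6.53 and 6.44, and the array medians were 7.09 to 7.18. Whether signals this low follow a change was not tested. Of 15 T cell genes 1 rose and 0 fell; of NK and cytotoxic genes 1 of 11 rose (0 without mice 5 and 6) and of B cell genes 1 of 9, all shares below the 15.4% of all genes. Cd3e, part of the T cell receptor complex, had 7.84, 7.95 and 8.17 with lard and 7.70, 8.0 and 8.09 with fish oil, a change of 0.03 (adjusted p = 0.895). The 1 T cell gene that rose was Il7r, the interleukin-7 receptor, with 9.91, 10.53 and 11.91 with lard and 8.23, 8.93 and 9.91 with fish oil, a change of 1.81 (adjusted p = 5.32e-05); lard-fed mice 5 and 6 were its highest, at 11.91 and 11.86, and without them the change was 1.28 (adjusted p = 0.000477). Dendritic cell markers rose in 7 of 13 and fell in 1, including Clec9a (0.93) and Xcr1 (0.49), which mark cross-presenting cells, and Flt3 (0.66). Mast cell genes had 0 of 8 higher and 0 lower. In the neutrophil list the 2 chains of calprotectin went apart. S100a8 had 7.47, 7.94 and 8.70 in lard-fed mice and 6.29, 6.64 and 7.18 in fish oil-fed mice, a change of 1.34 ± 0.22 (adjusted p = 4.14e-05). S100a9 had 5.74, 5.88 and 6.20 in lard-fed mice and 6.40, 6.88 and 7.86 in fish oil-fed mice, a change of -1.06 ± 0.19 (adjusted p = 9.86e-05). Neither overlapped between the diets, in opposite directions, and the neutrophil genes Ly6g, Ngp and Camp differed by 0.13, -0.06 and -0.08 (adjusted p = 0.412, 0.617 and 0.538). Ly6g, Ngp and Camp had low signals, with medians of 4.59, 4.87 and 6.41 in lard-fed and 4.50, 4.95 and 6.50 in fish oil-fed mice. The chains of calprotectin are known to be made together; each was read here by 1 probe set, and whether either probe set measures its gene alone was not tested.

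Genes of cell division rose in 29 of 31 and fell in 0, with a median of 0.89 and the same count without mice 5 and 6. All 18 mitosis genes rose and in all of them the groups did not overlap. Bub1, of the spindle checkpoint, had 6.81, 7.31 and 8.49 with lard and 5.31, 5.96 and 6.20 with fish oil, a change of 1.61 ± 0.24 (adjusted p = 1.32e-05). Ccnb2 and Mki67, a cyclin and the antigen Ki-67, rose by 1.48 and 1.29, and of 13 DNA replication genes 11 rose, led by Rrm2 (1.26). Cdkn2c, which encodes the cyclin-dependent kinase inhibitor p18, had 9.58, 10.79 and 10.92 with lard and 11.29, 11.49 and 11.77 with fish oil, a change of -1.05 ± 0.18 (adjusted p = 6.81e-05; -0.68 without mice 5 and 6). It was the 1 gene of 11 of arrest and senescence that fell, and 4 rose, or 1 without mice 5 and 6 and 2 without fish oil-fed mouse 3 or 6. Cdkn2a, a marker of senescent cells, differed by -0.05 (adjusted p = 0.65).

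Matrix genes rose in part. Of 30 collagen chains 16 rose and 2 fell, or 14 and 0 without mice 5 and 6. Collagen VI, the pericellular collagen of fat cells, held several: Col6a5 had 9.71, 10.35 and 10.91 with lard and 8.42, 8.81 and 9.37 with fish oil, a change of 1.47 ± 0.24 (adjusted p = 4.06e-05), and Col6a1, Col6a2 and Col6a3 rose by 0.81, 0.77 and 0.69. Col12a1 rose by 1.23 and Col1a1 by 0.74 (0.43 without mice 5 and 6). Of 43 genes of matrix turnover and crosslinking 27 rose and 1 fell, or 20 and 0 without mice 5 and 6. Of the 27, 19 kept their call. Timp1 had 10.20, 10.60 and 11.75 with lard and 6.77, 8.66 and 9.30 with fish oil, a change of 2.31 ± 0.39 (adjusted p = 6.2e-05). Its relative Timp4 was the 1 that fell, by 1.03, and did not pass without lard-fed mice 5 and 6 (a change of -0.42, adjusted p = 0.259). It also did not pass without lard-fed mouse 5, lard-fed mouse 6 or fish oil-fed mouse 5 (adjusted p up to 0.0654). Mmp3, stromelysin, rose by 1.55 (1.03 without mice 5 and 6), Adam8 by 2.09, the crosslinking oxidase Lox by 0.85, the glycoprotein Tnc by 1.12 and Tgfb1, the growth factor TGF-beta1, by 0.86. Mrc2, which takes up collagen fragments into cells, had 9.91, 10.28 and 10.52 with lard and 7.93, 8.43 and 8.89 with fish oil, a change of 1.86 ± 0.14 (adjusted p = 1.84e-09). Of 14 fibroblast and progenitor markers 2 were higher (1 without mice 5 and 6) and 1 lower, beside 15.4% higher and 15.6% lower of all genes. Pdgfra differed by -0.10 (adjusted p = 0.669). Endothelial markers rose in 4 of 20, a share near the 15.4% of all genes, with Pecam1 at 0.12 (adjusted p = 0.6).

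The mesothelium, the cell layer that covers the depot, was lower in signal with lard: 10 of 13 markers fell and 0 rose, with a median of -0.67, and 8 fell without mice 5 and 6. List means were 7.82, 8.41 and 8.52 in lard-fed mice and 8.27, 9.10 and 9.33 in fish oil-fed mice, ranges that overlapped. Msln, mesothelin, had 7.91, 8.59 and 8.74 with lard and 8.28, 9.56 and 9.78 with fish oil, a change of -0.86 (adjusted p = 0.00243), and Krt19, a keratin of this layer, had 7.14, 7.81 and 7.94 with lard and 7.97, 8.79 and 9.39 with fish oil, a change of -1.07 (adjusted p = 0.00451). Msln overlapped between the diets and Krt19 did not. How much of the surface layer each piece of tissue held was not tested.

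Glucocorticoid, clock and amino acid stress lists each had genes past the threshold in both directions. Hsd11b1, the enzyme that makes active glucocorticoid within fat, had 8.48, 9.30 and 9.49 with lard and 9.83, 10.19 and 10.99 with fish oil, a change of -1.18 ± 0.20 (adjusted p = 9.06e-05), and the receptor gene Nr3c1 fell by 0.42. Of 15 glucocorticoid-responsive genes 3 rose and 5 fell, beside 31% of all genes in either direction, and 3 fell without fish oil-fed mouse 5 or 6, while Fkbp5 and Tsc22d3 differed by -0.38 and -0.24 (adjusted p = 0.215 and 0.128). Genes of the circadian clock rose in 3 of 17 and fell in 4, beside 15.4% higher and 15.6% lower of all genes. Without mice 5 and 6 these counts were 1 and 2, beside 12.2% and 10.1% of all genes. Per2 differed by -0.09 (adjusted p = 0.719). Of 15 immediate early genes 4 rose, 0 fell and 11 did not pass, beside 15.4% higher of all genes, and the median change was 0.05. Those that rose included Atf3 (1.65), Egr2 (1.58) and Fos (0.88, or 0.58 without mice 5 and 6). Of 16 amino acid stress targets of ATF4 3 rose and 5 fell, or 2 and 3 without mice 5 and 6, beside the shares of all genes given for the clock. Asns, asparagine synthetase, had 10.23, 10.37 and 10.56 with lard and 11.15, 11.35 and 11.49 with fish oil, a change of -0.95 ± 0.07 (adjusted p = 1.02e-09), Phgdh and Psph, of serine synthesis, fell by 0.72 and 0.47, and Mthfd2 and Shmt2, of mitochondrial one-carbon metabolism, rose by 0.71 and 0.58. Trib3, Chac1 and Ddit3, which ATF4 also drives, did not pass (adjusted p = 0.913, 0.847 and 0.114).

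The last question was whether these diet differences depended on bacterial status, which the interaction contrast tests without shared mice. It passed in 1435 genes (7.2%), and 552 of them had also passed in conventional mice. The count was 861 without lard-fed mouse 3, 909 without fish oil-fed mouse 3 and 2710 without lard-fed mice 5 and 6. Liver transcripts bear on these calls: they averaged 6.99, 7.40 and 8.41 in lard-fed and 6.92, 7.06 and 8.47 in fish oil-fed conventional mice, beside 6.62, 6.92 and 7.95 in lard-fed and 8.49, 9.13 and 9.78 in fish oil-fed mice without microbes, and 16 of the 19 liver genes passed the interaction. Intestinal transcripts averaged 5.85, 5.96 and 6.28 in lard-fed and 6.01, 6.05 and 6.11 in fish oil-fed conventional mice, beside 5.89, 6.48 and 9.29 in lard-fed and 5.97, 6.08 and 6.20 in fish oil-fed germ-free mice. The part of either in the other interaction calls was not tested. Saa3, which encodes a serum amyloid of the acute-phase response, had a change of 1.95 in conventional and 0.30 in germ-free mice, a difference of 1.64 ± 0.40 (adjusted p = 0.0149). Its values in conventional mice were 10.44, 11.10 and 11.97 with lard and 8.19, 9.37 and 9.64 with fish oil, so that the lowest lard-fed mouse was above the highest fish oil-fed mouse. Lcn2, an iron-scavenging protein of the same response, had 1.34 and -0.12 (difference 1.46 ± 0.42, adjusted p = 0.0343). Cxcl10 had 1.39 and 0.12 (difference 1.27 ± 0.32, adjusted p = 0.0163), and Ccl7, a monocyte attractant, 1.29 and -0.10 (difference 1.39 ± 0.41, adjusted p = 0.0375). For these 4 genes the germ-free change did not pass the threshold. The difference of Lcn2 lost its call without lard-fed mouse 3 or 5 or any of fish oil-fed mice 3 to 6 (adjusted p up to 0.0632), and that of Ccl7 without any of lard-fed mice 2 to 4 or fish oil-fed mice 3 to 6 (adjusted p up to 0.0754); without mice 5 and 6 together, that of Lcn2 had an adjusted p of 0.0559. Of chemokine ligands 6 of 25 passed the interaction.

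The MHC class II genes rose more in conventional than in germ-free mice: 8 of 12 passed the interaction, all with the larger change in conventional mice, beside 7.2% of all genes, and the count was 7 to 9 under every alternative tried. H2-DMa had 1.47 and 0.90 (difference 0.57 ± 0.13, adjusted p = 0.0103), Cd74 1.13 and 0.65 (adjusted p = 0.00762) and Ciita 0.98 and 0.53 (adjusted p = 0.00924). Among genes lower with lard, Acaca had -1.87 in conventional and -1.07 in germ-free mice (difference -0.80 ± 0.23, adjusted p = 0.0341), Elovl6 -0.96 and 0.26 (difference -1.22 ± 0.24, adjusted p = 0.00443) and Hsd11b1 -1.18 and -0.07 (difference -1.10 ± 0.29, adjusted p = 0.0225). Pdha1 and Dlat, of pyruvate dehydrogenase, had changes of -0.90 and -0.53 in conventional mice, beside -0.29 and -0.09 without microbes (adjusted p of the difference = 0.0113 and 0.0286). The difference of Acaca lost its call without lard-fed mouse 5 or fish oil-fed mouse 3 or 6 (adjusted p up to 0.0666), and that of Dlat without lard-fed mouse 3 or 4 or fish oil-fed mouse 3 or 6 (adjusted p up to 0.0565). With quantile normalization repeated, their adjusted p was 0.0641 and 0.0701, and without lard-fed mice 5 and 6 that of Acaca was 0.0659. Oxtr rose less in conventional mice, by 1.78, against 3.34 in germ-free mice (difference -1.55 ± 0.29, adjusted p = 0.00275). For Gpr50 the changes were 4.83 and 4.89, a difference of -0.06 ± 0.54 (adjusted p = 0.964). A total of 96 genes passed in both kinds of mice with opposite directions, and all of them passed the interaction.

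**Figure D5:**
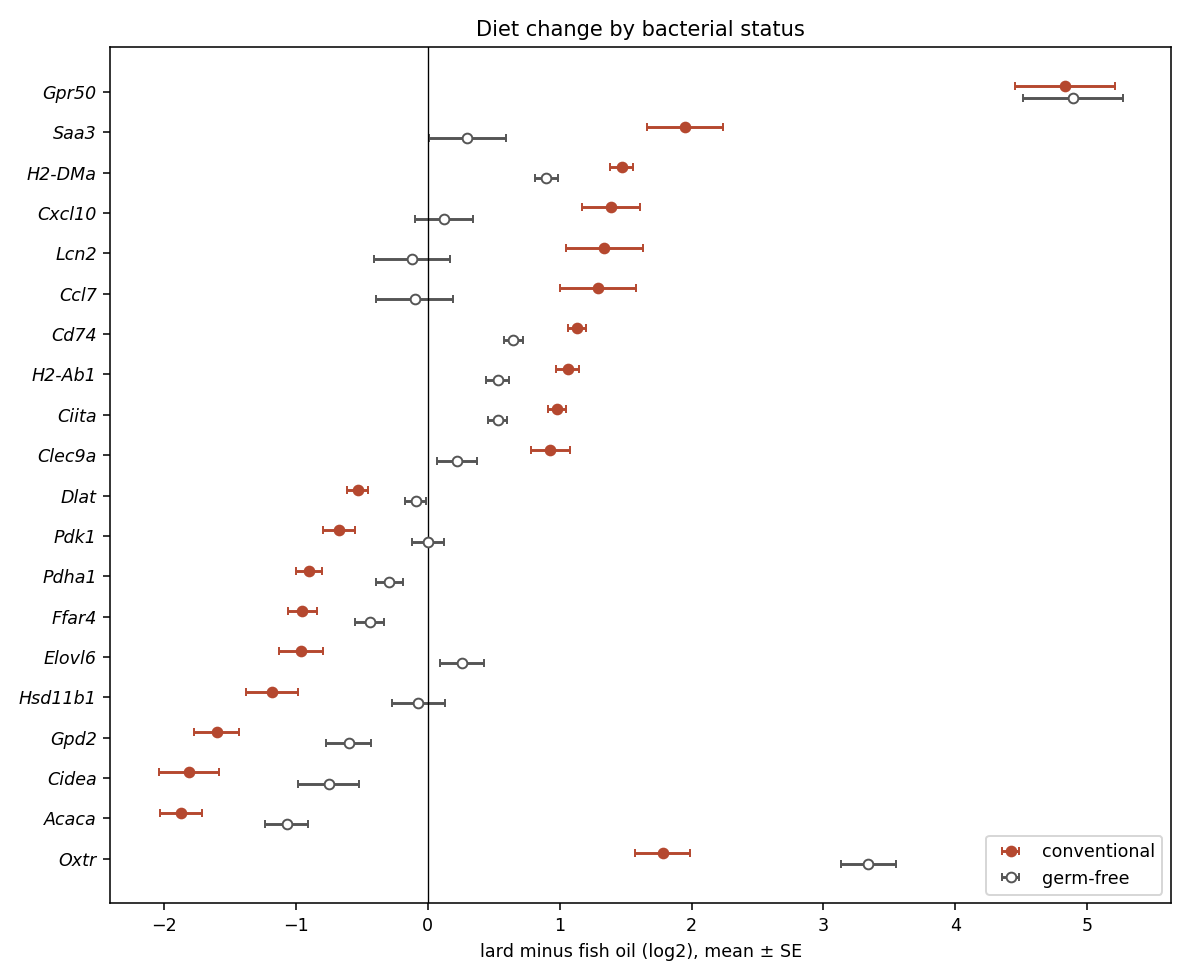
Diet change (x axis, log2, lard minus fish oil, mean ± SE from limma, 6 and 6 mice each) of 20 genes in conventional mice (filled) and germ-free mice (open, below). Saa3, Lcn2, Cxcl10 and Ccl7 lie near 0 in germ-free mice and above 1 in conventional mice, while Gpr50 lies at the same place in both.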

How the data were processed

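RNA of epididymal fat from 24 mice was hybridised to 1-colour Affymetrix mouse gene arrays. The authors deposited log2 values made by RMA per the submitters' processing notes, whose version is not given in the sources used here. RMA adjusts background, equalises the distributions of the arrays and summarises probes, so large shifts that touch most genes cannot be seen. Signal over background is not in these values. The precision of a change rests on the number of arrays and on each gene's spread between mice. Some genes that did not pass, Scd1, Cd36, Lpl, Dgat2 and B2m, lay at 13.3 or above in every conventional mouse, where the highest value of any array was 14.59. Others, Ucp1, Ly6g, Ngp, Camp, Clec4e and Nlrp3, lay below the array medians of 7.09 to 7.18 in those mice. Whether signals this high or this low follow a change was not tested. Of 35556 probe sets, 21789 had 1 gene symbol, 1621 several and 12146 none; symbols were updated by Entrez ID, and 21698 probe sets were found in the GRCm38.p6 RefSeq table. The probe set with the highest mean stood for each of 19938 genes. Where a named gene had several, they ran the same way (Irs1 -1.07 and -0.51, Insr -0.41 and -0.39, Acaca -2.04 and -1.87, Ppargc1a -1.64 and -1.23, Col6a5 0.80 and 1.47, Cd80 0.47 and 0.73 at the lowest and highest). Probe sets of different genes were not compared in level.

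Group means of all 24 arrays were fitted with limma 3.58.1 (lmFit and eBayes, R 4.3.3), which shares 1 spread among the 4 groups; p-values were adjusted by Benjamini-Hochberg and called under 0.05. The interaction is the diet change of conventional minus that of germ-free mice. On simulated data with the values' own spread, 95% of genes changed by 1 log2 unit and 84% changed by 0.5 were recovered in this comparison, with 5.3% false calls. The simulation changed 100 genes by each amount and drew the noise of each gene independently. In the data 6178 genes passed, and lard-fed mice 5 and 6 stood apart over whole lists, so these rates need not hold there. Named genes were taken from the 30 largest rises and falls, the 10 smallest adjusted p in each direction, up to 6 members of each of 67 gene lists, and the largest interaction differences, with non-passing members named where a role needed them; some further members were chosen after their values were seen. Of 1536 genes in the lists, 105 had no usable probe set with 1 gene and were left out. Members and lists were chosen with earlier results of these data known. Lists are described by counts and medians, with no set test. Alternatives were median centring, repeated quantile normalization, a filter on the lowest 40 percent of genes by mean, the mean of all probe sets, the conventional arrays alone, mouse number as a block, trended robust eBayes, array weights, and leaving out mice. Promoter sequences are RefSeq's, of GRCm38.p6. Figures were drawn with matplotlib 3.10.9 from values computed with Python 3.11.15, numpy 2.4.6 and pandas 2.3.3.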

Additional observations from a re-analysis of the deposited data

Results flagged for a closer look

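In 20 of 558 gene-and-group pairs (3.58%; chance gives about 1 in 20) 1 mouse lay far from the other 5 of its group, by a gap that took up most of the group's range. In fish oil-fed mouse 1 these log2 signals were Ccl5 10.56, Cd80 8.0, Clec10a 9.51, Clec9a 7.54, Fcgr4 8.60 and Retn 13.88. In fish oil-fed mouse 6 they were Chac1 8.87, Cidea 9.73, Dgat1 11.83, Mest 10.66, Mgst2 10.33, Saa3 8.19 and Timp1 6.77. Fish oil-fed mouse 5 had Ctsd at 12.91 and Phgdh at 10.70, and fish oil-fed mouse 3 had Cd3e at 7.70. Among lard-fed mice, mouse 5 had Cd80 at 8.79 and Lpl at 13.31, mouse 1 had Fkbp5 at 9.07 and mouse 6 had Lyve1 at 9.26.

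The diet change differed between conventional and germ-free mice by limma's interaction test in 34 named genes. The change was larger or more positive in conventional mice for Saa3 (1.64), Lcn2 (1.46), Ccl7 (1.39), Cxcl10 (1.27), Tnc (0.82), Clec9a (0.71), Flt3 (0.64), Lcp2 (0.62), Fcgr2b (0.59), H2-DMa (0.57), H2-Ab1, H2-Eb2 and H2-Ob (0.52 each), Cd74 (0.48), H2-Eb1 (0.47), Ciita (0.45), Psmb9 (0.44), H2-Oa (0.38) and Gpr35 (0.37). It was more negative, or less positive, in conventional mice for Oxtr (-1.55), Elovl6 (-1.22), Hsd11b1 (-1.10), Cidea (-1.06), Gpd2 (-0.99), Ebf2 (-0.85), Acaca (-0.80), Pdgfra (-0.72), Pdk1 (-0.67), Pdha1 (-0.61), Idh3a (-0.54), Ffar4 (-0.51), Dlat (-0.44), Nr3c1 (-0.39) and Asns (-0.34). Of these, 13 lost the call without fish oil-fed mouse 3 and 12 without lard-fed mouse 3.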

How the results depend on the processing

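No value changed direction past the threshold under any alternative run. On leaving out 1 mouse at a time the count of genes that differed by diet ranged from 5319 to 6683, of which 2726 to 3261 were higher and 2563 to 3422 lower, and 1380 to 1821 were at least 1.5-fold. The interaction count ranged from 861, without lard-fed mouse 3, to 2070, beside 1435, and was 909 without fish oil-fed mouse 3. Without lard-fed mice 5 and 6 it was 2710, and 2017 genes were lower, beside 3102. With array weights the interaction count was 2526. Under the other alternatives these counts over all genes stayed within 1.5 times of those reported. Of 134 counts of list members in either direction, 3 to 17 moved by over 1.5 times, or to or from 0, under each alternative other than leaving out mice 5 and 6 together, where 29 did. Median centring turned the split to 2641 higher and 4271 lower. Among 34 interaction differences of named genes, 9 lost the call with repeated quantile normalization, 8 with the block and 7 without mice 5 and 6. The mean of all probe sets gave Acaca an interaction of -0.69 (adjusted p = 0.0811), and trended robust eBayes gave Ccl7 an adjusted p of 0.0512 and Cidea one of 0.0583. Of 279 named genes, 8 lost the diet call without mice 5 and 6. Cd163 also lost it with array weights, trended robust eBayes, the mean of all probe sets and the block, and in the conventional arrays alone, where Timp4 did too; Il1b lost it with array weights and the block, and Timd4 with array weights. Akt1 and Ccl3 passed with the filter on low values, Lpl with median centring, Srxn1 in the conventional arrays alone and Hadha without mice 5 and 6. The cause of these shifts was not tested. Mice of the 2 diets share only a number in the labels: deviations of same-numbered mice correlated at -0.10 to 0.23, and 1 of 6 lard-fed mice correlated best with its own number. With mouse number as a replicate block, 6020 genes differed, 2999 higher and 3021 lower, 1630 were at least 1.5-fold and 1131 passed the interaction; the named differences that then missed the threshold were Acaca (adjusted p = 0.059), Asns (0.0547), Cidea (0.0858), Clec9a (0.0597), Ffar4 (0.0722), Gpr35 (0.0622), H2-Ob (0.0567) and Pdgfra (0.0532).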
